A study of Bos taurus with 15 samples.

Results

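The core histone rows described here are 5 of the 31999 rows of a gene count table of bovine embryos at the morula stage: HIST1H2AK, HIST2H2AA4 and HIST2H2AC, which carry H2A names, and LOC516742 (H4C14) and LOC617905 (H4C1), which carry H4 names in RefSeq. They were chosen by name after earlier results of the same data, chiefly for their level in androgenetic against ICSI embryos. That contrast is therefore given below as a description, without a test. The table held 15 RNA-seq libraries in 3 groups of 5. Androgenetic embryos were haploid, with only the genome of a sperm. Parthenogenetic embryos were haploid as well, with only the genome of an oocyte. ICSI embryos were diploid, made by injection of a sperm into an oocyte. The sample titles began with TII, CHX and ICSI for these groups, in this order. Effects of any treatment behind the titles TII or CHX cannot be told apart from those of the group. Both haploid groups differ from ICSI embryos in ploidy, in parental genome and in the procedure that made them, and these cannot be told apart. The labels did not say whether a library held 1 embryo or a pool, nor give the bull, cow, breed, age or day of collection. The p-values below therefore reflect no more than the variation among these 15 libraries, part of which may be technical.

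H2A and H4 are core histones: with H2B and H3 they form the octamer around which DNA is wound. Most of their genes lie in clusters of near-identical, intronless copies and are transcribed mainly while DNA is replicated. Messages of these replication-dependent genes usually end in a stem-loop bound by SLBP and lack a poly(A) tail, although polyadenylated forms exist. Early embryos also inherit histone messages from the oocyte. Sequencing started from polyadenylated RNA, and what share of all histone message the counts represent was not tested.

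Library totals ran from 19968077 to 28981601 counts. Between 13564 and 19950 rows had at least 1 count. Androgenetic replicate 6 (13564), parthenogenetic replicate 6 (16154) and ICSI replicate 5 (15286) had the fewest of their groups and are called the 3 low-detection libraries. Results without them are given where they differ. Of 24 genes listed as markers of the early embryo, 3 had a row under their symbol (ARGFX, DUXA and SOX2), and each had counts in all 15 libraries. ARGFX, a homeobox gene of the early embryo, ranged from 645 to 3923 CPM (counts-per-million, with library sizes scaled by TMM factors) among androgenetic libraries and from 256 to 999.6 CPM among ICSI libraries, with a log2 fold change of 1.49 ± 0.50 (SE; edgeR adjusted p = 0.1004). DUXA, another homeobox gene, had 2.69 ± 1.03 (edgeR adjusted p = 0.147), with 6423 CPM in androgenetic replicate 6. SOX2 had -0.05 ± 0.88 in the same contrast (edgeR adjusted p = 0.984). Of the 3 markers, 0 were called in any contrast, and their part in the histone values was not tested. Of 20 cumulus cell markers none had a row under its symbol, so cumulus RNA could not be checked. In bulk libraries, fewer cells of a type and less RNA per cell cannot be told apart.

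The 5 rows held fewer than 5 separate signals. HIST1H2AK and HIST2H2AA4 differed by at most 50 counts, or 0.171%, in each library, and were taken as 1 signal, the H2A pair. An unnamed row, ENSBTAG00000046003, differed from HIST1H2AK by at most 70 counts, or 0.225%. In total 7 rows moved as one: the pair, H4C14 and 4 unnamed rows had log2 ratios to HIST1H2AK whose SD over the 15 libraries was at most 0.0765, while the next row had 0.651. Which locus a row stands for is uncertain. The RefSeq assembly ARS-UCD2.0 lists neither HIST1H2AK nor HIST2H2AA4, and a separate row that it names H2AC15 (LOC614970) held only 41 counts in all.

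The count of H4C14 was almost exactly the sum of the H2A pair. It was 91295 in androgenetic replicate 1, where HIST1H2AK and HIST2H2AA4 summed to 90872. In androgenetic replicate 2 it was 31650, against a sum of 31649. The difference, called the remainder here, was at least 1 and at most 2585 counts, and it made up 0.00316% to 10.9% of the H4C14 row. H4C14 was between 2.0 and 2.24 times HIST1H2AK in every library. Whether reads of the H2A rows were also counted on the H4C14 row was not tested. In ARS-UCD2.0, H4C14 lies between H3C14 and H3C13, with H2AC18 beyond H3C14. Nearly all of the H4C14 count thus cannot be told apart from that of the H2A pair, and the name is used below only for the row.

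**Figure D1:**
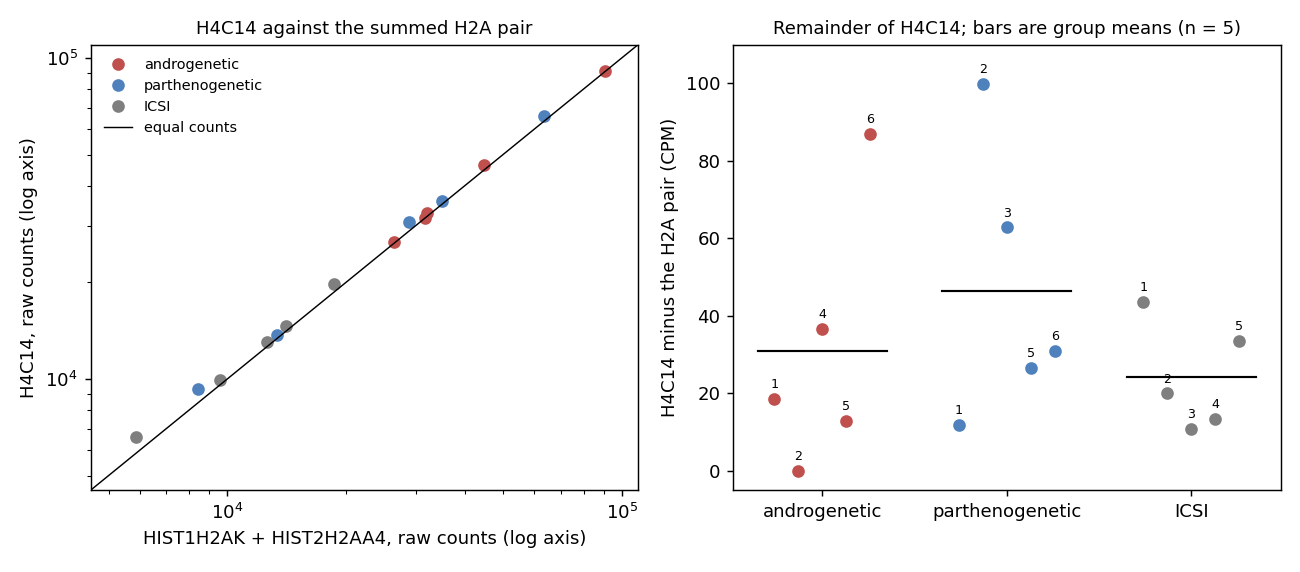
Left, raw counts of H4C14 against the summed raw counts of HIST1H2AK and HIST2H2AA4 on log axes, with 1 point per library and a line of equal counts; right, the remainder after subtraction in CPM, with numbers for replicates and bars for group means. All 15 points lie on or just above the line, and the remainder overlaps between the groups, from 0.0616 to 87.0 in androgenetic and 10.9 to 43.7 in ICSI libraries.

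In androgenetic embryos the H2A pair was at a higher level than in ICSI embryos. The CPM of HIST1H2AK in androgenetic replicates 1, 2, 4, 5 and 6 were 1996, 974.5, 603, 785 and 1213. In ICSI replicates 1 to 5 they were 346, 265, 143, 197 and 138. The lowest androgenetic library thus stood above the highest ICSI library. The means were 1114 ± 542 (SD, n = 5) and 218 ± 88.3 CPM, a log2 fold change of 2.35 ± 0.54 (SE), or 5.11-fold. By count, HIST1H2AK ranked between 99 and 341 among all rows in androgenetic and between 542 and 1459 in ICSI libraries.

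H4C14, whose counts are mostly those of the pair, gave the same picture and is not a second result. Its CPM was 4008, 1949, 1241, 1583 and 2512 in androgenetic replicates 1, 2, 4, 5 and 6, and 736, 550.1, 297, 408 and 308 in ICSI replicates 1 to 5. The groups did not overlap, and the log2 fold change was 2.30 ± 0.53 (SE). The remainder overlapped between the groups. It was 18.6, 0.0616, 36.7, 12.9 and 87.0 CPM in the androgenetic libraries and 43.7, 19.97, 10.9, 13.4 and 33.5 CPM in the ICSI libraries, in the same order of replicates. Both the lowest and the highest of these 10 values were androgenetic. With the remainder in place of the row, an alternative chosen after seeing the data, the log2 fold change was 0.35 ± 0.89 (SE). With that error, whether the remainder differed less than the row was not shown.

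H4C1 is the row that gives a separate signal under an H4 name. It does not equal the pair: its log2 ratio to HIST1H2AK had an SD of 0.844 over the 15 libraries. Its CPM was 55.4, 60.5, 50.8, 28.0 and 88.2 in androgenetic replicates 1, 2, 4, 5 and 6. In ICSI replicates 1 to 5 it was 21.5, 16.6, 13.5, 11.1 and 15.3. Every androgenetic library was above every ICSI library, although androgenetic replicate 5 was close to ICSI replicate 1. The log2 fold change was 1.86 ± 0.38 (SE), with means of 56.6 ± 21.6 and 15.6 ± 3.89 CPM (SD, n = 5).

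HIST2H2AC, which RefSeq names H2AC20, was the row with the widest spread among androgenetic libraries. Its CPM was 7.99, 34.0, 2.33, 48.5 and 17.9 in androgenetic replicates 1, 2, 4, 5 and 6, a 20.8-fold range. In ICSI replicates 1 to 5 it was 4.60, 3.13, 2.09, 2.03 and 6.55. Of the androgenetic libraries, 4 stood above all ICSI libraries, and replicate 4 lay inside their range. The log2 fold change was 2.59 ± 0.79 (SE). These values rest on 62 to 817 counts in androgenetic and 65 to 140 counts in ICSI libraries, far fewer than for the pair. For androgenetic against ICSI embryos, the H2A pair and H4C1 thus had no overlap in the higher direction, and so had H4C14, whose counts are mostly those of the pair, beside 3.05% of all 16375 tested rows. Since the rows were chosen by this contrast, nothing is read from that share.

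**Figure D2:**
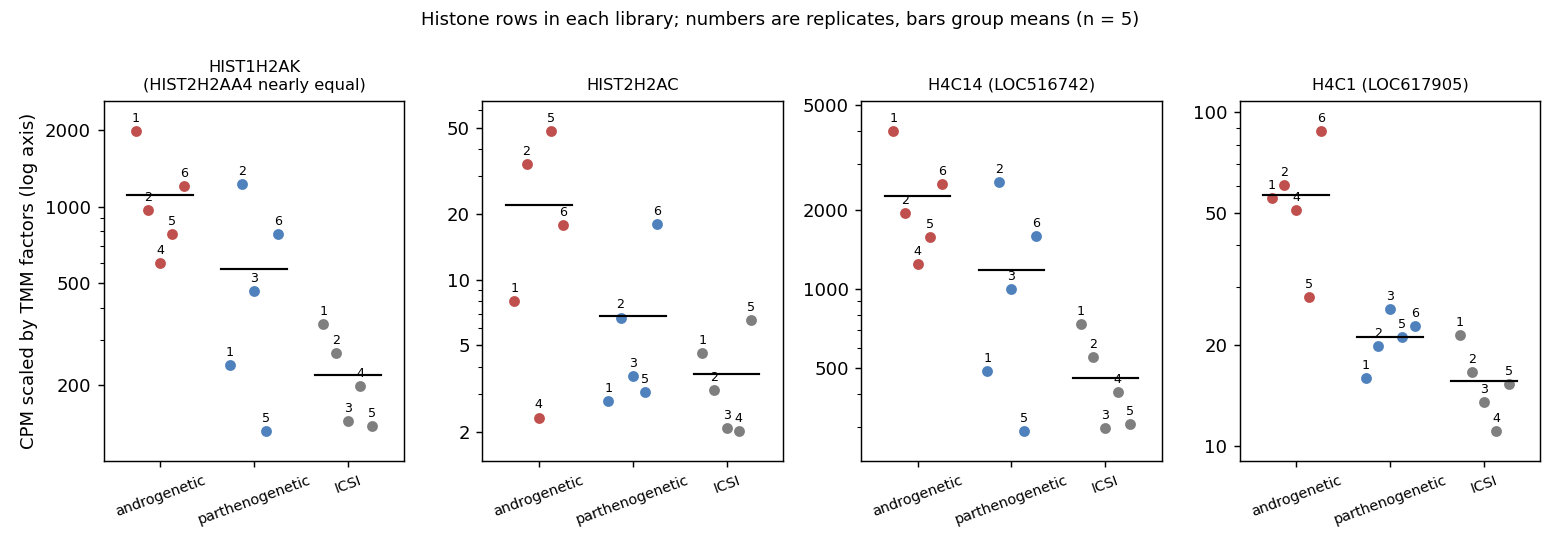
CPM of HIST1H2AK, HIST2H2AC, H4C14 and H4C1 in each library on log axes, by group, with replicate numbers at the points and bars at the group means (n = 5). The parthenogenetic libraries spread from 132 to 1226 for HIST1H2AK and only from 15.9 to 25.7 for H4C1, where all 5 androgenetic libraries lie above them.

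Parthenogenetic embryos varied most in the H2A pair. HIST1H2AK was 238, 1226, 468, 132 and 781 CPM in replicates 1, 2, 3, 5 and 6, a 9.31-fold range against 3.31-fold in androgenetic and 2.52-fold in ICSI libraries. Replicates 2, 3 and 6 stood above all ICSI libraries, replicate 1 lay within the ICSI range and replicate 5 just below it. The mean of 569 ± 444 CPM (SD, n = 5) gave a log2 fold change from ICSI of 1.38 ± 0.52 (SE), which did not pass over all rows (adjusted p = 1.0, unadjusted p = 0.0158 in edgeR's quasi-likelihood test). H4C14 had 487, 2551, 998, 290 and 1591 CPM in the same replicates, with a log2 fold change of 1.36 ± 0.52. Its remainder had 0.93 ± 0.90.

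H4C1 and HIST2H2AC, the rows with separate counts, had smaller log2 fold changes from ICSI embryos than the pair. Whether they differed from the pair in this was not tested. H4C1 was 15.9, 19.96, 25.7, 21.2 and 22.9 CPM in parthenogenetic replicates 1, 2, 3, 5 and 6, with 2 of them above all ICSI libraries. Its log2 fold change from ICSI was 0.44 ± 0.37 (SE). HIST2H2AC was 2.77, 6.72, 3.60, 3.06 and 18.0 CPM, so replicate 6 stood alone, and the log2 fold change of 0.89 ± 0.75 was 0.13 without it. Of the 4 signals, 0 were called against ICSI at an adjusted p under 0.05, beside 0.0% of all tested rows in the higher and 0.0733% in the lower direction. At an unadjusted p under 0.05 in edgeR, 2 of the 4 passed (the pair and H4C14, which are 1 signal in most of their counts), beside 1.86% of all rows in either direction, and DESeq2 called 0. Without the 3 low-detection libraries, 0 of the 4 had an unadjusted p under 0.05 in edgeR. This contrast shares the ICSI libraries with the one by which the rows were chosen.

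Between the haploid groups, H4C1 came closest to a call. Its means were 56.6 ± 21.6 CPM in androgenetic and 21.1 ± 3.63 CPM in parthenogenetic libraries (SD, n = 5), and all 5 androgenetic libraries were above all 5 parthenogenetic ones. Such a separation in the higher direction was found in 1 of the 4 signals, of which H4C14 and the pair share most counts, and in 1.78% of all tested rows. The log2 fold change was 1.42 ± 0.37 (SE), or 2.68-fold, with an adjusted p of 0.0577 in edgeR's quasi-likelihood test over all rows. It passed with DESeq2 size factors (adjusted p = 0.0449), in DESeq2 itself (4.04e-04) and without the 3 low-detection libraries (0.0286). Without those 3 libraries the unadjusted edgeR p went from 0.00133 to 0.00203 and the log2 fold change to 1.36. That pass thus came from the adjustment over all rows, not from a larger difference. Leaving out each library in turn gave edgeR adjusted p from 0.0488 to 0.151. H4C1 passed only without androgenetic replicate 4, parthenogenetic replicate 6 or ICSI replicate 5 (log2 fold changes of 1.45, 1.44 and 1.46). The unadjusted edgeR p in these was 0.00218, 0.00255 and 0.00122. The androgenetic libraries are shared with the contrast that chose the row, so this is not independent of it.

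The other signals overlapped between the haploid groups. The H2A pair differed by a log2 fold change of 0.97 ± 0.52 (SE; edgeR adjusted p = 0.323), with parthenogenetic replicate 2 above 4 of the 5 androgenetic libraries. H4C14 had 0.93 ± 0.51, while its remainder had -0.58 ± 0.89, the opposite sign. HIST2H2AC had 1.70 ± 0.76 (adjusted p = 0.238). Without parthenogenetic replicate 6 it had 2.45 (edgeR adjusted p = 0.0772), and without the 3 low-detection libraries 2.67, which passed (adjusted p = 0.0406). In the other direction, it had 1.18 without androgenetic replicate 5 (edgeR adjusted p = 0.456). edgeR called 0 of the 4 signals, beside 0.916% of all rows in the higher direction, 0.837% in the lower and 1.75% in either. At an unadjusted p under 0.05 it had 2 of 4 (H4C1 and HIST2H2AC), beside 18.7% of all rows in either direction. DESeq2 called 1, H4C1, and the share of all rows that DESeq2 called was not counted. Over the H2A pair, HIST2H2AC and H4C1, with H4C14 left out since it repeats the pair, the median log2 fold change was 0.89 for parthenogenetic minus ICSI and 1.42 between the haploid groups, where the medians over all tested rows were 0.02 and 0.00. With H4C14 included these were 1.13 and 1.195. For androgenetic minus ICSI, by which the rows were chosen, the median was 2.35, or 2.33 with H4C14. The other contrasts each share a group of libraries with that one. Their distance from the medians over all rows is thus not free of the choice, and nothing is read from it.

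The signals were not high in the same androgenetic libraries. The H2A pair was highest in replicate 1, HIST2H2AC in replicate 5 and H4C1 in replicate 6. Replicate 5 was at once the highest for HIST2H2AC and the lowest for H4C1. The ratio of HIST2H2AC to HIST1H2AK, in which scaling factors cancel, ranged 15.8-fold over androgenetic libraries and 4.25-fold and 4.61-fold over parthenogenetic and ICSI libraries. Its mean log2 value was -6.18 ± 1.80, -6.36 ± 0.93 and -5.94 ± 0.89 (SD, n = 5 each) in the 3 groups, so the group means differed by less than the spread within them. For H4C1 over HIST1H2AK the means were -4.27 ± 0.69, -4.35 ± 1.25 and -3.74 ± 0.43 in the same order. The ICSI mean was higher than the haploid means by more than the ICSI SD and by less than the androgenetic and parthenogenetic SDs. These are ratios of counts, not per length, and give no order of level between genes.

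**Figure D3:**
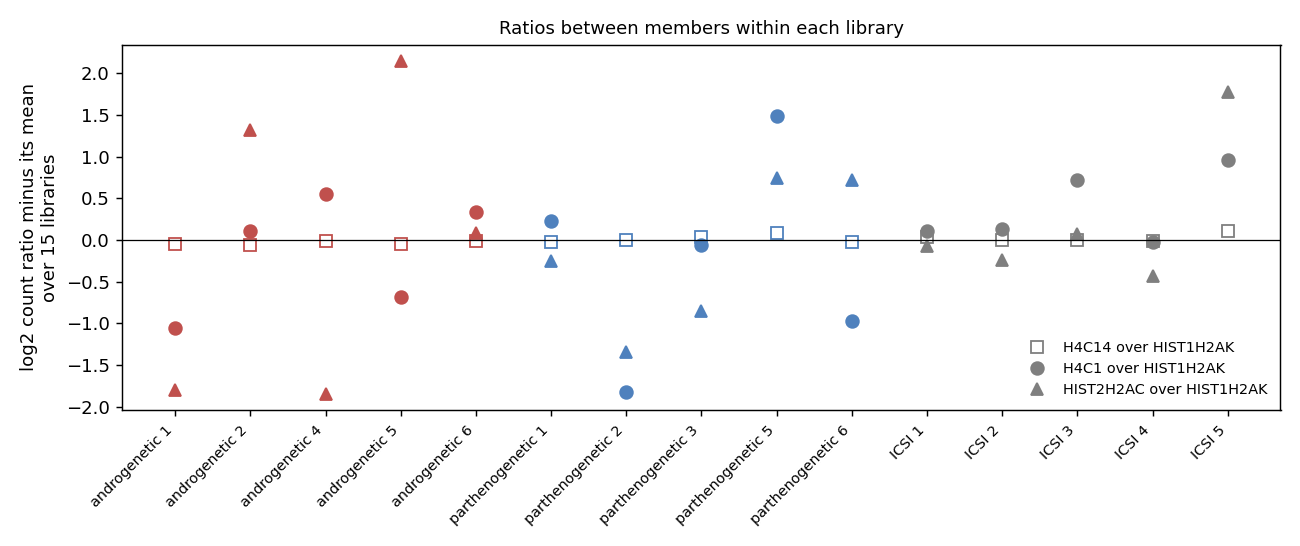
Log2 count ratios of H4C14 (open squares), H4C1 (circles) and HIST2H2AC (triangles) to HIST1H2AK in each library, each minus its mean over the 15 libraries, with colours for the groups. H4C14 stays near 0 (SD 0.0465) while H4C1 (SD 0.844) and HIST2H2AC (SD 1.197) move by more than a log2 unit in both directions.

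Among other histone rows, 12 of the 17 found by name were tested, and 1 was called. H4C19 (LOC518961), a further H4 gene, was higher in androgenetic than in ICSI embryos by a log2 fold change of 2.78 ± 0.69 (SE; edgeR adjusted p = 0.0416), beside 1.76% of all rows called in the higher direction, 1.06% in the lower and 2.82% in either. Its CPM was 96.5, 22.6, 70.4, 13.5 and 91.7 in androgenetic replicates 1, 2, 4, 5 and 6, and 11.4, 17.2, 6.10, 6.03 and 2.06 in ICSI replicates 1 to 5. Replicate 5 of the androgenetic group fell inside the ICSI range. The call was lost without any 1 of androgenetic replicates 1, 2 and 5, parthenogenetic replicates 2 and 5 and ICSI replicates 1 to 5, and over all 15 omissions the edgeR adjusted p lay between 0.0303 and 0.118 while the log2 fold change lay between 2.53 and 3.19. Between the haploid groups H4C19 had 1.53 ± 0.66 (adjusted p = 0.219).

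Other rows with H2A or H4 names overlapped between androgenetic and ICSI embryos. H4C13 (LOC528329), also an H4 gene, had 393 ± 312 CPM (SD, n = 5) in androgenetic libraries. The ICSI mean was 304 ± 322 and the parthenogenetic mean 312 ± 263 CPM, and androgenetic minus ICSI was 0.37 ± 0.66 (SE; edgeR adjusted p = 0.807). HIST1H2AH and HIST1H2AJ, rows with H2A names, had 0.53 ± 0.68 and -0.12 ± 1.22. H4C8 (LOC527388), an H4 gene with few counts that is named here after its values were seen, had 2.02 ± 1.15 (edgeR adjusted p = 0.354), with 3 androgenetic libraries above all ICSI libraries. HIST2H2BE, an H2B gene that RefSeq names H2BC21 and places next to H2AC20, had 0.57 ± 0.60 (adjusted p = 0.651), at 30.4 ± 19.5 against 20.5 ± 10.9 CPM. Its neighbour HIST2H2AC had means of 22.2 and 3.68 CPM in the same groups. Whether H4C13 and H4C1, or HIST2H2AC and HIST2H2BE, differ in their response was not tested.

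Linker histones, which bind DNA between nucleosomes, had positive log2 fold changes in 4 of 4 tested rows for androgenetic minus ICSI, and 0 were called. At an unadjusted p under 0.05 in edgeR, HIST1H1C was the 1 of them to pass. HIST1H1C was 51.9, 45.9, 36.2, 12.6 and 19.3 CPM in androgenetic replicates 1, 2, 4, 5 and 6 against 8.43 to 14.4 in ICSI libraries, with 1.45 ± 0.47 (edgeR adjusted p = 0.0916). Against parthenogenetic embryos it had 1.502 ± 0.47 (edgeR adjusted p = 0.0967). DESeq2 called HIST1H1C in both contrasts, and so did edgeR without the 3 low-detection libraries. HIST1H1D had 1.86 ± 0.91 and 0.43 ± 0.88 in these contrasts. H1F0, also named after its values were seen, was low, at 1.24 to 3.03 CPM in androgenetic and 0.0 to 1.04 CPM in ICSI libraries, with no overlap (2.29 ± 1.33, edgeR adjusted p = 0.366). Among the 12 other tested histone rows it was the 1 so separated in the higher direction, beside 3.05% of all tested rows. H2AFX (H2AX), the variant that is phosphorylated at DNA breaks, had the opposite sign. It had 1.61 ± 1.13 CPM in androgenetic and 2.71 ± 0.496 in parthenogenetic libraries against 5.05 ± 1.26 in ICSI libraries. No library of either haploid group reached the ICSI range, and the log2 fold changes of -1.65 ± 0.73 and -0.89 ± 0.72 did not pass (edgeR adjusted p = 0.218 and 1.0). Groups did not overlap in this lower direction in 4.15% and 0.501% of all tested rows.

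Over all 12 other tested histone rows the median log2 fold change against ICSI embryos was 0.98 for androgenetic and 0.26 for parthenogenetic libraries, and it was 0.53 between the haploid groups. The median of 0.26 turned to -0.18 without parthenogenetic replicate 3. Positive values numbered 10, 8 and 10 of 12 in this order, where 49.8%, 51.2% and 49.9% of all tested rows were positive. The contrasts share libraries in pairs. Apart from H4C19, 0 of these rows were called in edgeR in any contrast, while 3, 1 and 3 of the 12, H4C19 among them in the first and the last contrast, had an unadjusted p under 0.05. Over all rows those shares were 19.7%, 1.86% and 18.7%. DESeq2 called 3 (H4C19, HIST1H1C and, lower, H2AFX), 0 and 2 (HIST1H1C and HIST1H2BA). The share of all rows that DESeq2 called was not counted, so nothing is read from these numbers.

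**Figure D4:**
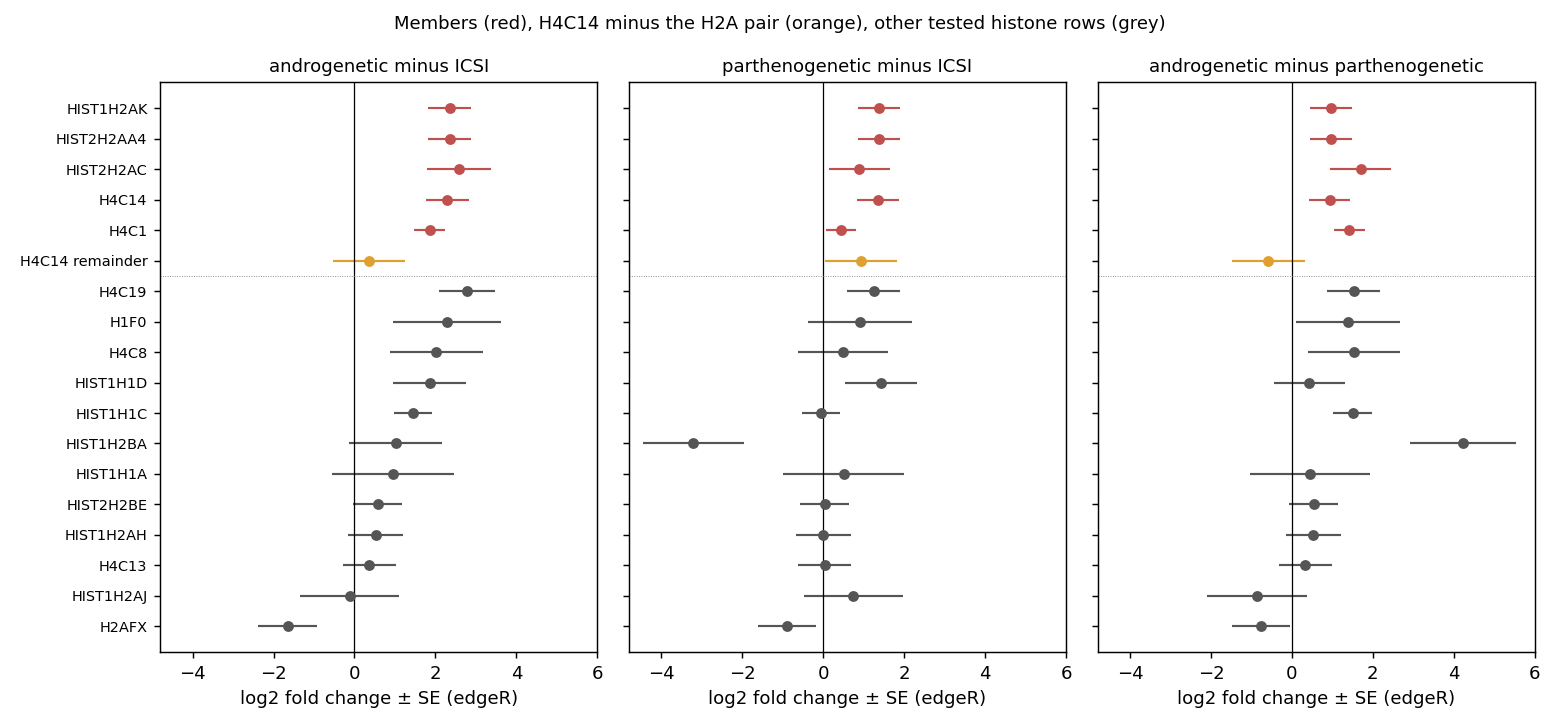
Log2 fold changes with SE bars from edgeR for the 5 chosen rows (red), the remainder of H4C14 after subtraction of the H2A pair (orange) and the other 12 tested histone rows (grey) in the 3 contrasts. The chosen rows lie right of 0 in each panel, the remainder has 0.35, 0.93 and -0.58 from left to right, and H2AFX lies left of 0 throughout.

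HIST1H2BA, an H2B gene and the only 1 of 11 genes listed as sperm markers with a row, was near the limit of detection. It had 29, 7, 32, 12 and 21 counts in androgenetic replicates 1, 2, 4, 5 and 6, and 28, 11, 7, 20 and 1 counts in ICSI replicates 1 to 5. In parthenogenetic replicates 1, 2, 3, 5 and 6 it had 0, 0, 5, 2 and 0 counts. Every androgenetic library was above every parthenogenetic library (edgeR log2 fold change 4.23 ± 1.30 SE, adjusted p = 0.0903), which did not pass in edgeR. Such a separation was found in 1 of the 12 other tested histone rows and in 1.78% of all tested rows. Parthenogenetic minus ICSI was -3.21 ± 1.25 (edgeR adjusted p = 1.0). With so few parthenogenetic counts, both fitted values depend on the prior count. Whether any HIST1H2BA counts came from sperm was not tested.

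Few genes that act on histone messages had a row under a symbol. Of 30 genes listed for the transcription, processing and decay of histone mRNA, 2 were tested, and of 22 for polyadenylation, 2. Of 25 histone chaperones and 33 DNA replication genes, none had a row under its symbol, so S phase could not be set beside the histone rows. ZCCHC6 (TUT7) and ZCCHC11 (TUT4) are uridylyltransferases that act in mRNA decay, histone mRNA included. ZCCHC6 was 116, 227, 60.3, 47.3 and 242 CPM in androgenetic replicates 1, 2, 4, 5 and 6, against 33.3 to 113 in ICSI and 34.1 to 63.8 in parthenogenetic libraries. It differed by 1.16 ± 0.46 on the log2 scale from ICSI and 1.48 ± 0.46 from parthenogenetic embryos (edgeR adjusted p = 0.164 and 0.0951). ZCCHC11 had -0.50 ± 0.54 and -0.59 ± 0.54.

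Of the polyadenylation genes, PAPD4 (TENT2), a cytoplasmic poly(A) polymerase, had -0.25 ± 0.53 and -0.39 ± 0.53 in the same contrasts. PABPC1L, the embryonic poly(A)-binding protein, was 10.9, 11.8, 7.41, 32.9 and 0.0 CPM in androgenetic replicates 1, 2, 4, 5 and 6 and 1.22 to 4.07 in ICSI libraries. The log2 differences of 2.47 ± 1.23 and 3.18 ± 1.27 did not pass (edgeR adjusted p = 0.278 and 0.183). Replicate 5 was highest for PABPC1L as it was for HIST2H2AC, and replicate 6 lacked PABPC1L counts. None of these 4 genes was called in edgeR in any of the 3 contrasts.

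The genes with a pattern most like each signal were sought among 283 symbol rows with a mean of at least 5 CPM that were no histones, by the SD over the 15 libraries of the log2 ratio to the histone row. For H4C14 they were MRPL14, a mitochondrial ribosomal protein gene, RBM8A, of the exon junction complex, and NXPH1, a neurexophilin gene, with SDs of 0.81, 0.83 and 0.83. The SD of H4C14 itself was 1.26 on the log2 CPM scale, and the median over the 283 rows was 1.67. For HIST2H2AC they were TMEM269, OST4 and SMIM26, with 0.54, 0.55 and 0.59 where HIST2H2AC had 1.39, and all 3 were closer to it than any other histone row (at least 1.15). An unnamed row, ENSBTAG00000040098, named here after its value was seen, was closer still, with 0.18. For H4C1 they were SYCE1L, WHAMM and RAMMET, with 0.55, 0.65 and 0.65 where H4C1 had 0.87. Among all rows with a mean of at least 5 CPM, unnamed ones included, 16, 107 and 110 were closer to H4C1 than these. For the genes named above, the numbers were 42, 59 and 62 for H4C14 and 26, 38 and 56 for HIST2H2AC. The nearest histone row to H4C1 was HIST1H1C, with 0.56. The SDs of HIST2H2AC and H4C1 to the H2A pair were 1.16 and 0.85, below the medians of 1.81 and 1.39 over the 283 rows. Since the nearest rows are picked as the closest of many, nothing is read from their being closer to HIST2H2AC and H4C1 than the pair is.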

How the data were processed

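Per the labels' protocols, the RNA was polyadenylated, with SMART-Seq HT for cDNA and Nextera XT for the libraries. The submitters' processing notes name Trim Galore, cutadapt, STAR and featureCounts; build, annotation, strand setting and treatment of multi-mapping reads are not given in the sources used here. What the authors deposited were whole counts per row, not normalized, with 27607 of 31999 rows under Ensembl identifiers. Of the others, 3006 matched RefSeq (ARS-UCD2.0), used for names and gene order only.

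Counts were fitted with edgeR 4.0.16 in R 4.3.3: TMM factors, the default expression filter (16375 rows, all 5 chosen rows among them), a quasi-likelihood model by group over the 15 libraries, and p-values adjusted over all rows (Benjamini-Hochberg), with calls under 0.05. The SE is the log2 fold change over the square root of F. The test was tested on simulated data. CPM used TMM factors; ratios used a pseudocount of 0.5 counts and the likeness measure 0.5 CPM. DESeq2 1.42.0, other scalings, no filter, group pairs alone, a replicate block and each library left out were alternatives. Rows, gene lists and tests were chosen with earlier results of these data known. Beyond the 5 rows, genes named were the called and the most abundant histone rows, the most abundant members of the other lists, and the 3 most similar symbol rows.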

Additional observations from a re-analysis of the deposited data

Results flagged for a closer look

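HIST2H2AC in parthenogenetic replicate 6 stood apart from the rest of its group. It had 18.0 CPM where the other libraries had 2.77 to 6.72, and its gap to the next library was 0.741 of the range of the group, above the critical value of 0.71 for 5 samples. Of 12 sets of 5 libraries checked (4 signals in 3 groups, with H4C14 repeating most of the pair), this was the 1 that passed. Chance alone passes about 1 in 20 of such sets, so 1 pass among 12 can arise by chance. The gap was measured on CPM and was not checked on the log2 scale. This library also had the fewest genes detected of its group, 16154. Without it, HIST2H2AC in parthenogenetic minus ICSI embryos went from 0.89 to 0.13 on the log2 scale.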

How the results depend on the processing

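The log2 fold changes of the 5 rows kept their sign in each contrast under the 24 alternatives (23 for HIST2H2AA4, which has no value where the pair is summed), apart from H4C14, which had -0.58 between the haploid groups once the H2A pair was subtracted. Androgenetic minus ICSI for that alternative was 0.35 (chosen after seeing the data). Scaling by DESeq2 size factors moved the median over all rows from -0.01 to 0.13 for androgenetic minus ICSI and from 0.00 to 0.12 for androgenetic minus parthenogenetic, and the median of the 4 signals stayed positive. Between the haploid groups, the number of the 4 signals called went from 0 to 1 with DESeq2 size factors and in DESeq2, to 2 without the 3 low-detection libraries, and was 0 to 1 with each library left out. Of the other histone rows, 1 was called for androgenetic minus ICSI, 0 with a replicate block, 2 without the low-detection libraries, 3 in DESeq2 and 0 to 2 with each library left out. Between the haploid groups 0 were called, 1 without the low-detection libraries and 2 in DESeq2. How many of all rows were called under these alternatives was not counted, so nothing is read from these numbers. Their median for parthenogenetic minus ICSI, 0.26, turned to -0.053 without the low-detection libraries, and lay between -0.18 (without parthenogenetic replicate 3) and 0.55 with each library left out. Beyond fewer samples, the cause was not tested. Deviations of same-numbered libraries from their group means had correlations from -0.05 to 0.09 over 12 pairs. These were not set beside differently numbered pairs, and whether same-numbered libraries shared a day or batch was not tested. The main model did not pair libraries by number. With the replicate block H4C19 was no longer called (edgeR adjusted p = 0.119). HIST2H2AC then had 1.78 for androgenetic minus ICSI and 0.05 for parthenogenetic minus ICSI. Depth limits the remainder of H4C14, which falls to 1 count, and HIST1H2BA, with 0 counts in some libraries.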
